A study of Mus musculus with 4 samples.

Results

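Nuclear and noncoding RNAs were measured in single-cell libraries of the embryonic mouse heart, summed over kinds of cell. The 8 genes were Malat1, Neat1, Bc1, Kcnq1ot1, Gm42418, AY036118 and B230312C02Rik, none of which is annotated as coding for a protein, and Lars2, a protein-coding gene. They were found by symbol among the 32285 genes counted in the deposited files. They were listed with results of these libraries already known, because Neat1 and Bc1 stood higher in endothelial-like cells of mutant hearts. Their difference between genotypes in those cells therefore chose them, and it is described here without a test.

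Hearts were taken at E10.5 from C57BL/6J embryos that were either wild-type (Wt) or homozygous for the Cyp51 I383V allele (Ho). The allele is a knock-in point mutation of the lanosterol demethylase of cholesterol synthesis, made in the germline by CRISPR/Cas9, so it is present in every cell of the embryo, and the labels give CRISPR/Cas9 as the treatment of all 4 samples, the wild-type ones included. The hearts were dissociated with collagenase II, red blood cells were lysed, and 2 libraries per genotype (Wt1, Wt2, Ho1 and Ho2) were made with a 3′ droplet assay, in which each captured polyadenylated molecule carries a unique molecular identifier (UMI). The sources used here do not say how many embryos or litters a library holds, so every p-value below measures only the spread between these 4 libraries.

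The files held 109893733 UMIs in 10320 barcodes for Wt1 and 117034633 in 8212 for Wt2. They held 127018819 in 7999 barcodes for Ho1 and 107377100 in 7058 for Ho2. Barcodes with 500 to 50000 UMIs, 500 to 6000 genes and at most 20% mitochondrial UMIs were kept and likely doublets were removed, which left 8908, 7154, 6980 and 6126 cells in that order. Their median depth was 10561, 14215.5, 15658 and 15831.5 UMIs, so Wt1 was the shallowest library. Any pair of libraries shared 14 to 34 barcodes, at most 0.425% of the smaller one.

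Cells were gated by single marker genes. Tnnt2-gated cells had at least 10 Tnnt2 UMIs per 10000 and no Cdh5 UMI, and Cdh5-gated cells had at least 1 Cdh5 UMI and less Tnnt2 than that. Hapln1-gated cells had at least 3 Hapln1 UMIs per 10000, no Cdh5 UMI and Tnnt2 below its limit. Crabp1-gated cells had at least 3 Crabp1 UMIs per 10000 and stayed below the limits of the other gates. In the order Wt1, Wt2, Ho1 and Ho2, which is kept throughout, there were 1645, 2541, 3235 and 2350 Tnnt2-gated cells and 1324, 1886, 2059 and 1189 Cdh5-gated cells. There were 611, 745, 849 and 473 Hapln1-gated cells. There were 2263, 347, 32 and 281 Crabp1-gated cells, so the last gate rests on very few cells in Ho1. Between 11.5% of cells in Ho1 and 34.4% in Wt1 passed no gate.

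The Cdh5 gate was checked against 10 endothelial markers, of which all 10 had UMIs in each library. Their summed level was 2037, 2175, 1844 and 2168 CPM, UMIs of the genes for every 1000000 UMIs of the summed cells, against 51.9 to 57.7 CPM in Tnnt2-gated cells and 286 to 366 in Hapln1-gated cells, and Egfl7 was the most abundant. Cdh5 itself, which the gate fixed and which is at 0 in the other gates, made up 254 to 287 CPM of the sum. These cells are called endothelial-like. They also held Hapln1 itself at 443 to 541 CPM. The 9 cardiomyocyte markers, led by Myl7, summed to between 54407 and 57189 CPM in Tnnt2-gated cells, which are called cardiomyocyte-like, and the 9 mesenchymal markers to between 3111 and 3367 CPM in Hapln1-gated cells, which are called mesenchymal-like. These lists likewise hold the gate genes Tnnt2, at 3454 to 3659 CPM, and Hapln1, at 856 to 952 CPM. Crabp1-gated cells keep the name of their gate, since their sums held 496 CPM of epithelial markers in Wt2 and 2084 CPM of cardiomyocyte markers in Ho1.

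Ho1 stood apart in 2 respects that bear on what follows. It held 11127 UMIs of Xist, the RNA that coats the inactive X chromosome of female cells, in Cdh5-gated cells, where the other libraries held 0, 2 and 1. Where Ho1 leads a difference, as for Bc1 and B230312C02Rik, genotype, the sex of the embryos and the library therefore cannot be told apart, and for Cdh5- and Tnnt2-gated cells the values without Ho1 are given beside it. Its 7 blood markers were the highest of the 4 libraries in each gate. The level of Cyp51 itself was 46.3, 42.4, 40.4 and 40.3 CPM in Cdh5-gated cells and 68.7, 64.4, 62.3 and 72.2 CPM in Tnnt2-gated cells. A point mutation need not alter the amount of its transcript, so these levels do not check the labels.

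Malat1 is an abundant nuclear RNA that gathers in nuclear speckles, bodies rich in splicing factors. Neat1, its neighbour on the chromosome, is the scaffold of paraspeckles, nuclear bodies that assemble on it and hold RNA-binding proteins, and it is known to respond to stress, p53 and hypoxia. Kcnq1ot1 is transcribed antisense to Kcnq1 from the paternal chromosome and silences imprinted genes around it in cis. Bc1 is a short cytoplasmic RNA of rodents, made by RNA polymerase III and best known from neurons, where it represses translation. Gm42418 and AY036118 are annotated within a copy of the ribosomal RNA gene, and Lars2 encodes the mitochondrial leucyl-tRNA synthetase. B230312C02Rik is annotated as a spliced noncoding RNA.

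In GENCODE M21 on GRCm38, Malat1 lies at chr19:5795690-5802672 and Neat1 at chr19:5824708-5845478, both on the minus strand. Kcnq1ot1, at chr7:143203458-143296549 on the minus strand, lies in all its 93092 bases within the protein-coding gene Kcnq1 on the opposite strand. Lars2 has 21 exons at chr9:123366927-123462666 on the plus strand, and B230312C02Rik has 7 exons at chr2:180370491-180385885 on the minus strand. Cell Ranger was run with its defaults, under which only reads in the sense direction of a gene are counted, so strand separates Kcnq1ot1 from Kcnq1.

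Bc1 is a single exon of 168 bases at chr7:144914470-144914637 on the plus strand. Its sequence is shown because it is short, carries a run of A inside and resembles other transcripts, each of which bears on how a 3′ assay that primes on A counts it. The capitals mark the longest run of A, 23 bases from base 77.

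Bc1 RNA: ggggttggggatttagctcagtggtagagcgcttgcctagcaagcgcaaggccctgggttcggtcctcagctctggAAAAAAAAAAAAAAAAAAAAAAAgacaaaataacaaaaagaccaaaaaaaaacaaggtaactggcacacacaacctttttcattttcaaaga

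A run of A as long occurred in the longest transcript of 0.687% of 55450 annotated genes. Kcnq1ot1 held a longer run, 41 bases, which 0.0252% of genes matched. Malat1 had a longest run of 12, Neat1 of 7, Gm42418 and Lars2 of 6, B230312C02Rik of 5 and AY036118 of 4. Bc1 shared at least 60 bases at 90% identity or more with transcripts of 38 other genes, for example 106 bases with Dennd4a at 93.4%, and B230312C02Rik did so with 48 other genes. UMIs of either RNA could therefore have been assigned to, or come from, related sequences on the counted strand. Their counts are uncertain to that extent. For B230312C02Rik the matches with Gm42729, Nme7, Gstt2 and Kdm5a lay on the opposite strand, which is not counted for it.

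Gm42418, 1831 bases at chr17:39846958-39848788 on the plus strand, and AY036118, 923 bases at chr17:39847113-39848035 on the minus strand, overlap each other. Both lie inside the annotated ribosomal RNA gene CT010467.1 at chr17:39846353-39848827 on the minus strand, which is not among the genes of the files. All 923 bases of AY036118 are the reverse complement of bases 156 to 1078 of Gm42418. The first 60 shared positions, chr17:39847113-39847172, are shown on both strands to make this plain.

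Gm42418 stretch: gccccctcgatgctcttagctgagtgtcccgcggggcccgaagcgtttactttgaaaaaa
AY036118 stretch: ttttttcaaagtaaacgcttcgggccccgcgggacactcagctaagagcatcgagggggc

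Strand alone decides which of this pair a read in the shared bases is counted for. Lars2 shared a stretch of 72 bases near its end, bases 3278 to 3349, with the antisense transcript Gm15564 at 98.6% identity.

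In Cdh5-gated cells Neat1, Bc1 and B230312C02Rik stood higher in each Ho library than in either Wt library, by factors of 1.77, 1.82 and 1.65 in the mean. An exact permutation test of 2 against 2 gives p = 0.333 for a complete separation of the genotypes. The share of all genes so separated was not counted, so the lack of overlap, here and in other gates, is only a description. Because UMIs were summed, more cells with the RNA and more RNA in each cell cannot be told apart.

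Neat1 was at 7.995 and 8.52 CPM in Wt1 and Wt2 and at 13.4 and 15.9 CPM in Ho1 and Ho2. These levels rest on 147, 263, 465 and 327 UMIs. The exact Poisson 95% intervals, which cover counting error only, reached from 6.76 to 9.62 CPM over both Wt libraries and from 12.2 to 17.7 CPM over both Ho libraries. The means were 8.26 ± 0.371 CPM in Wt and 14.6 ± 1.75 CPM in Ho (SD, n = 2 each), and the fitted log2 fold change was 0.85 (SE 0.12).

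Bc1 was at 23.0, 23.3, 47.1 and 37.3 CPM, from 423, 720, 1638 and 769 UMIs. Ho1 was the highest and the Wt libraries lay close together. The means were 23.2 ± 0.226 CPM in Wt and 42.2 ± 6.95 CPM in Ho (SD, n = 2 each), and the log2 fold change was 0.91 (SE 0.13). It was 0.70 without Ho1, 1.09 without Ho2 and 1.28 with each cell thinned to 2000 UMIs.

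B230312C02Rik was at 16.8, 15.5, 29.4 and 23.7 CPM, again with Ho1 the highest and no overlap of the genotypes. The means were 16.1 ± 0.918 CPM in Wt and 26.6 ± 4.02 CPM in Ho (SD, n = 2 each), and the log2 fold change was 0.77 (SE 0.14). It was 0.58 without Ho1 and 0.94 without Ho2.

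The other RNAs differed less in these cells. Malat1 was at 6154, 5519.5, 6314 and 6436 CPM, both Ho libraries above both Wt by a small margin, with a log2 fold change of 0.16 (SE 0.11). Kcnq1ot1 was at 137, 141, 147 and 133 CPM and its genotypes overlapped. Gm42418 was at 1549, 1791, 1439 and 1091 CPM and Lars2 at 95.8, 108, 85.3 and 80.2 CPM, both lower in Ho than in Wt without overlap, with log2 fold changes of -0.36 (SE 0.15) and -0.26 (SE 0.08). Both also fell with the depth of the barcode, as described below. The median depth of these cells was 12809, 15221, 15730 and 15962 UMIs, and its part was not tested. AY036118 was at 50.3, 44.1, 53.5 and 19.2 CPM. Its log2 fold change was -0.31 with all libraries, -1.29 without Ho1 and 0.25 without Ho2, so its direction turned with the library left out.

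All 8 genes passed the filter on low counts in this gate. Over all 13753 genes the percent called at an adjusted p of 0.05 was 0 in either direction, which is given as background. The count at an unadjusted p under 0.05 was 774 genes, and DESeq2 called 28. As this contrast chose Neat1 and Bc1, nothing is read from these counts about them.

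**Figure D1:**
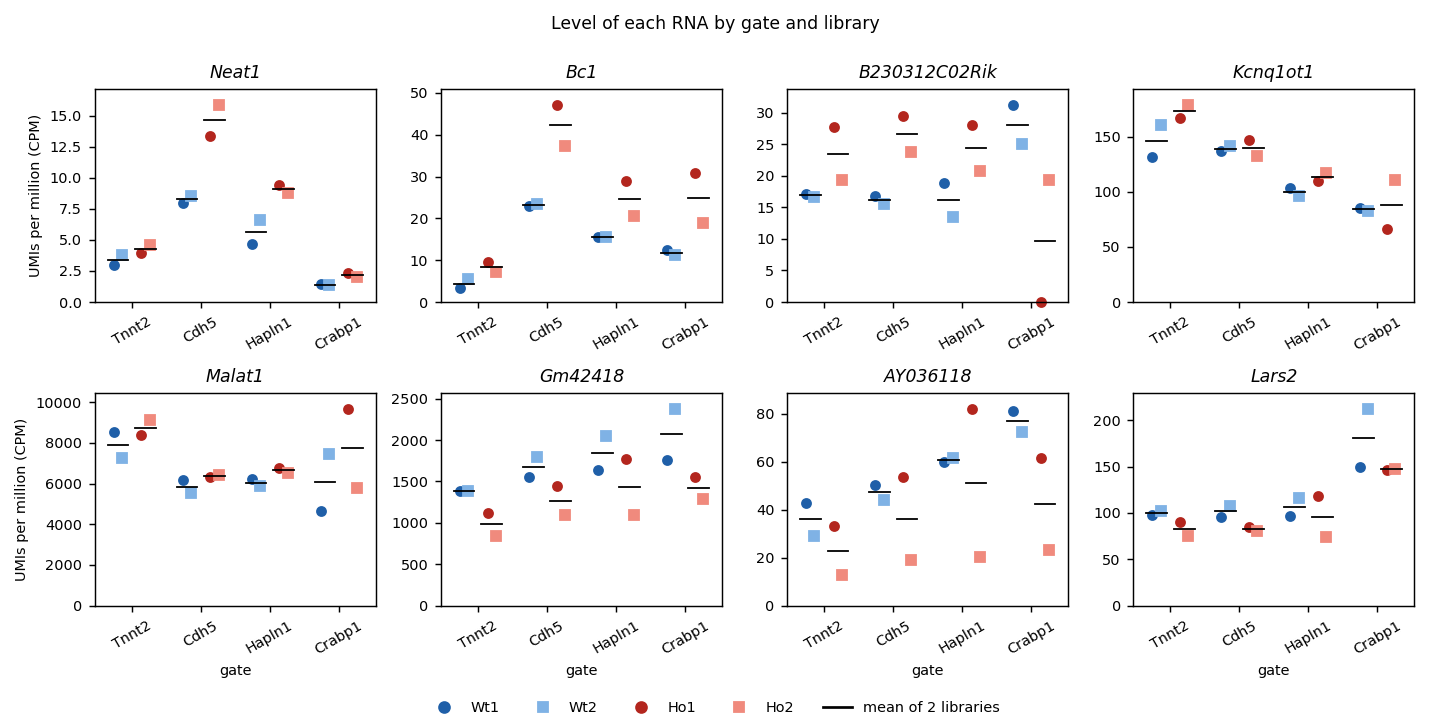
Level of each of the 8 RNAs (y axis, CPM) by gate (x axis) in each of the 4 libraries (points), with the mean of the 2 libraries of a genotype as a line and each panel on its own scale from 0. Neat1 and Bc1 were highest in Cdh5-gated cells, where Ho lay at 13.4 and 15.9 CPM for Neat1 against 7.995 and 8.52 CPM in Wt.

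The same RNAs were compared in the other gates. Neat1 and Bc1 were chosen by their level in Cdh5-gated cells. The choice of the RNAs also named these other gates, and the cells come from the same 4 libraries. The adjusted p-values in these gates are therefore not independent of the choice. In cardiomyocyte-like (Tnnt2-gated) cells Bc1 was at 3.32, 5.45, 9.47 and 7.12 CPM, from 67, 226, 526 and 295 UMIs. Ho lay above Wt without overlap, but the Wt libraries themselves differed by much of that gap. The log2 fold change was 0.88 (SE 0.23), with an adjusted p of 0.560 from edgeR's quasi-likelihood test. It was 1.10 with an adjusted p of 0.00043 without Ho2, 1.32 with 0.0490 without Wt2, 0.62 with 0.703 without Wt1 and 0.58 with 0.201 without Ho1, and the adjusted p was 2.65e-07 without the filter on low counts.

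Neat1 in Tnnt2-gated cells was at 2.98, 3.79, 3.98 and 4.56 CPM, from 60, 157, 221 and 189 UMIs. Wt2 and Ho1 were nearly level. The log2 fold change was 0.30 (SE 0.17, adjusted p = 0.817), 0.17 without Wt1 and 0.51 without Wt2. B230312C02Rik was at 17.2, 16.6, 27.7 and 19.3 CPM, with Ho2 close to Wt and Ho1 well above, and its log2 fold change of 0.48 (SE 0.18, adjusted p = 0.760) was 0.76 without Ho2 (adjusted p = 0.00012) and 0.14 without Ho1 (adjusted p = 0.706), and its adjusted p was 0.0022 without the filter.

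In mesenchymal-like (Hapln1-gated) cells Neat1 was at 4.64, 6.57, 9.39 and 8.74 CPM, from 33, 68, 105 and 62 UMIs. The genotypes did not overlap, and Ho was the higher. The log2 fold change was 0.68 (SE 0.21, adjusted p = 0.774).

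Bc1 in the same cells was at 15.5, 15.5, 28.8 and 20.6 CPM, so that the Wt libraries were level and Ho1 was again the highest. Its log2 fold change was 0.70 (SE 0.17) with an adjusted p of 0.539, and 0.00069 without the filter on low counts. It was 0.41 without Ho1. B230312C02Rik was at 18.8, 13.5, 28.0 and 20.7 CPM, and Ho2 lay only just above Wt1. Its log2 fold change was 0.64 (SE 0.20, adjusted p = 0.774), and Ho1 was again the highest. Leaving out Wt1, the higher Wt library, raised the change to 0.89. Without the filter its adjusted p was 0.0044.

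In Crabp1-gated cells Neat1 had only 34, 5, 1 and 7 UMIs and did not pass the filter on low counts. Bc1 had 289, 42, 13 and 66 UMIs, which gave 12.4, 11.2, 30.7 and 18.8 CPM and a log2 fold change of 0.90 (SE 0.36, adjusted p = 0.99989). B230312C02Rik ran the other way here, with 31.2, 24.98, 0 and 19.4 CPM. The 0 in Ho1 stands for 0 of 422788 UMIs, which allows up to 7.10 CPM, and that sum of 32 cells also held Postn, a mesenchymal gene, at 203 CPM against 7.27 to 17.5 in the other libraries.

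Of the 8 genes, 8, 8 and 7 could be tested in Tnnt2-, Hapln1- and Crabp1-gated cells, and none was called in either direction. The fits called 0 of 14577, 0 of 12192 and 0 of 10880 genes, so the percent called was 0 in each. In simulated data the Crabp1-gated fit recovered only 2 of 200 genes changed by 1 on the log2 scale. The lack of calls in that gate therefore says nothing about the RNAs. Changes of 0.5 were recovered for 71 and 70 of 200 genes in Tnnt2- and Hapln1-gated cells, so changes of that size would mostly be missed. At an unadjusted p under 0.05 there were 920, 644 and 207 genes, and DESeq2 called 22, 10 and 0. The size of the change was also compared between these gates, and none of 15397 genes was called in any of the 3 differences (percent called 0), where 219, 894 and 832 genes had an unadjusted p under 0.05. For Neat1 the change in Hapln1-gated cells exceeded that in Tnnt2-gated cells by 0.37 on the log2 scale (SE 0.23, adjusted p = 1), and for Bc1 it was smaller by 0.20 (difference -0.20, SE 0.25, adjusted p = 1).

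**Figure D2:**
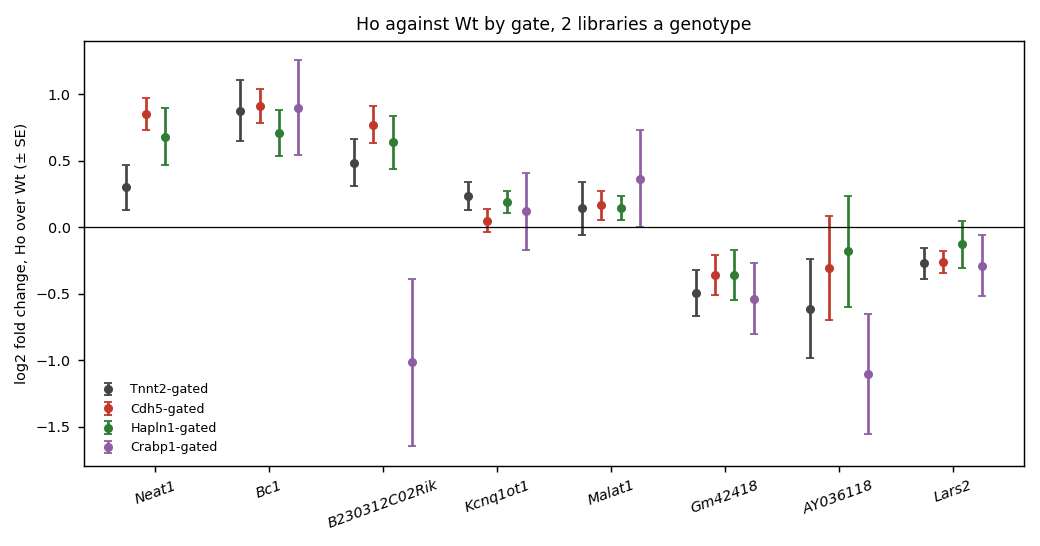
Log2 fold change of Ho over Wt (y axis) for each RNA (x axis) in the 4 gates (colours), with bars of ± 1 SE from the edgeR fit on 2 libraries a genotype. Bc1 lay between 0.70 and 0.91 in all 4 gates and Neat1 between 0.30 and 0.85 in the 3 gates where it could be tested, and no value in Tnnt2-, Hapln1- or Crabp1-gated cells passed the test.

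Malat1 and Kcnq1ot1, the long nuclear RNAs, differed little between genotypes in Tnnt2- and Hapln1-gated cells. Malat1 was at 8522, 7242, 8366 and 9128 CPM in Tnnt2-gated cells, where Wt1 lay above Ho1, and at 6205, 5857, 6754 and 6535 CPM in Hapln1-gated cells, where both Ho libraries lay above. The log2 fold changes were 0.14 (SE 0.20, adjusted p = 0.932) and 0.15 (SE 0.09, adjusted p = 0.942). In Tnnt2-gated cells the Malat1 change was 0.27 without Wt1 and 0.028 without Wt2. Kcnq1ot1 was at 131, 161, 167 and 179 CPM in Tnnt2-gated cells and at 103, 96.1, 109.7 and 117 CPM in Hapln1-gated cells. Ho lay above Wt in both gates, with log2 fold changes of 0.23 (SE 0.10, adjusted p = 0.786) and 0.19 (SE 0.08, adjusted p = 0.934). The Kcnq1ot1 change in Tnnt2-gated cells was 0.10 without Wt1 and 0.39 without Wt2. In the few Crabp1-gated cells Malat1 was at 4664, 7461, 9679 and 5786 CPM and Kcnq1ot1 at 85.5, 82.9, 66.2 and 111 CPM, the genotypes overlapped, and the direction of either RNA turned with the library left out.

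Gm42418, AY036118 and Lars2 tended the other way. In Tnnt2-gated cells Gm42418 was at 1383, 1386, 1122 and 839 CPM, both Ho libraries below both Wt, with a log2 fold change of -0.50 (SE 0.17, adjusted p = 0.732). It was -0.78 without Ho1 (adjusted p = 4.68e-05) and -0.25 without Ho2 (adjusted p = 0.257). Lars2 was at 98.1, 102, 90.6 and 74.9 CPM (log2 fold change -0.27, SE 0.12, adjusted p = 0.786), and its change was -0.48 without Ho1 (adjusted p = 0.0048) and -0.092 without Ho2 (adjusted p = 0.846). AY036118 went from -0.61 (SE 0.37, adjusted p = 0.830) to -1.54 without Ho1 (adjusted p = 1.0e-05) and -0.056 without Ho2 (adjusted p = 0.956). All 3 were lowest in Ho2, and the size of each change rested on it. Without the filter on low counts the adjusted p was 0.0203 for Gm42418, 9.31e-06 for AY036118 and 0.359 for Lars2, at nearly the same fold changes.

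In Hapln1-gated cells Gm42418 was at 1642, 2053, 1767 and 1089.8 CPM and Lars2 at 96.8, 116, 118 and 73.7 CPM, so that Ho2 lay below Wt for both, while Ho1 lay within the range of Wt for Gm42418 and just above it for Lars2. AY036118 was lowest in Ho2 in each gate, at 12.8 CPM in Tnnt2-gated, 20.3 in Hapln1-gated and 23.1 in Crabp1-gated cells, where the other 3 libraries lay between 29.2 and 42.7, between 59.7 and 82.1 and between 61.5 and 81.3 CPM. Over all kept cells there were 0.0391, 0.0255, 0.0358 and 0.0182 UMIs of AY036118 for each UMI of Gm42418. The ratio was likewise lowest in Ho2 within each gate, so that library held a different proportion of the overlapping pair.

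Other measures differed between the libraries in the same cells, some with genotype and some in a single library. Their part in the differences between genotypes was not tested. The 7 blood markers summed to 88.5, 81.0, 653 and 121 CPM in Cdh5-gated cells, to 3.52, 8.87, 146 and 15.0 CPM in Tnnt2-gated cells and to 6.61, 31.4, 56.7 and 38.6 CPM in Hapln1-gated cells. They stood above either Wt library in Ho2 and most of all in Ho1. The embryonic globin Hbb-y was their most abundant gene in most of these sums and Hba-x in Tnnt2-gated cells of Ho1, while Alas2 was at 0 in Cdh5-gated cells of Wt2, in Tnnt2-gated cells of Wt1 and in Hapln1-gated cells of Wt2. The 5 of 7 markers that could be tested in Cdh5-gated cells were all higher in Ho, with a median log2 fold change of 5.32 and none called. Without Ho1, the library with by far the most blood RNA, the log2 fold changes in Cdh5-gated cells were 0.95 for Neat1, 0.70 for Bc1 and 0.58 for B230312C02Rik.

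The 13 mitochondrially encoded genes summed to 11390.0, 12249, 12033 and 16358 CPM in Cdh5-gated cells and to 15107, 15164, 15976 and 23129 CPM in Tnnt2-gated cells. None was at 0, mt-Co2 or mt-Cytb was the most abundant, and Ho2 was the highest. In Cdh5-gated cells 12 of 13 were higher in Ho with a median log2 fold change of 0.35 and none called. Cdh5-gated cells of 2000 UMIs or more were also grouped by their mitochondrial share. Neat1 was at 5.30, 11.9, 13.8 and 13.3 CPM under 1%, at 9.57, 7.48, 13.2 and 16.4 CPM at 1 to 2%. Wt2 lay close to Ho in the first of these groups, where the Ho2 value rests on 38 cells and 8 UMIs. At 2 to 5% there were 0, 7, 13 and 37 UMIs of Neat1 in 44, 62, 98 and 179 cells, too few for a comparison. Bc1 was at 24.1, 25.3, 51.4 and 53.1 CPM under 1% and at 22.5, 22.8, 45.6 and 35.6 CPM at 1 to 2%. At 2 to 5% it was at 26.3, 19.8, 40.3 and 42.1 CPM, from 7, 13, 41 and 120 UMIs, too few in Wt for a firm comparison.

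The 9 cardiomyocyte markers summed to 475, 639, 1415 and 507 CPM in Cdh5-gated cells. They had Tnni1 or, in Ho1, Myl7 as the most abundant gene, and none was at 0. All 9 were higher in Ho, with a median log2 fold change of 1.31 and none called, although Ho2 lay below Wt2. The 5 epicardial markers, led by Upk3b, summed to 3.75, 3.69, 10.8 and 4.46 CPM, and the 6 macrophage markers, led by Cd68, to 7.89, 9.78, 11.5 and 10.7 CPM with C1qb and Ptprc at 0 in Wt1, Ptprc in Wt2 and C1qa and C1qb in Ho2. The 9 neuronal markers, led by Stmn2, summed to 151, 135, 92.2 and 149 CPM, lowest in Ho1, where Bc1 was highest. The endothelial markers themselves differed little, with 3 of 10 higher and 7 lower and a median log2 fold change of -0.10.

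**Figure D3:**
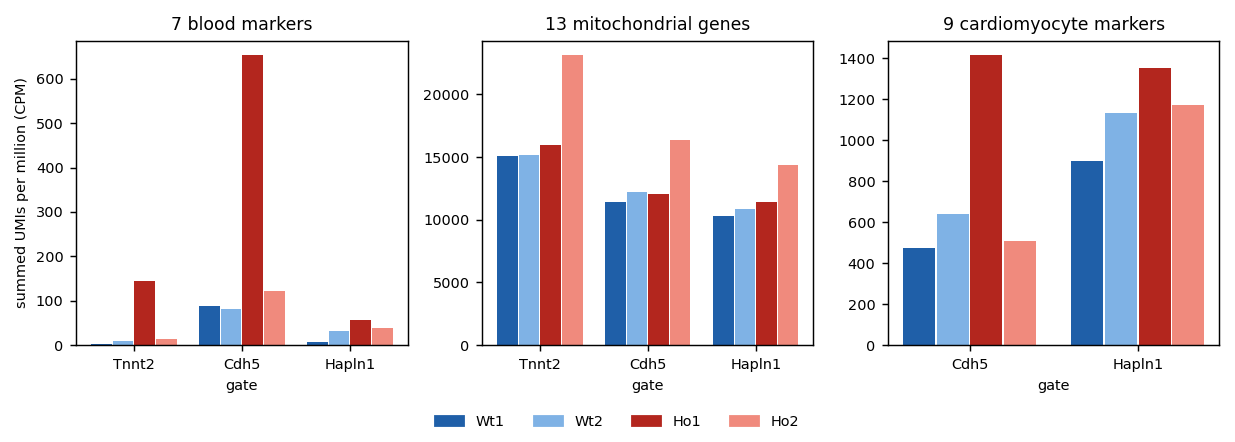
Summed level (y axis, CPM, from 0) of 7 blood markers, 13 mitochondrially encoded genes and 9 cardiomyocyte markers by gate (x axis) in each library (bars). Blood markers stood at 653 CPM in Cdh5-gated cells of Ho1 against 88.5 and 81.0 CPM in Wt, and mitochondrial genes were highest in Ho2.

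The level of several of these RNAs differed between the kinds of cell. The gates were compared in 1 fit of the 16 sums of 4 libraries and 4 gates, with the library as a block, over 14947 genes. The 6 pairs called between 37.5% (Hapln1 against Crabp1) and 73.3% (Tnnt2 against Cdh5) of all genes, so a call is the common outcome and the size of a difference is the more telling measure. For Tnnt2 against Cdh5, 37.8% were higher and 35.5% lower. The percent called was 67.5 for Tnnt2 against Hapln1, 62.2 for Tnnt2 against Crabp1, 38.5 for Cdh5 against Hapln1 and 53.2 for Cdh5 against Crabp1. The scaling of the fit differed from plain CPM by -0.21 (log2) in Tnnt2-gated and 0.14 in Crabp1-gated sums relative to Cdh5-gated ones, so fitted differences are not the ratios of the CPM. The Cdh5-gated sums hold the Ho levels for which Neat1 and Bc1 were chosen, so their differences from that gate are given without a test.

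Neat1 was highest in Cdh5-gated cells at 11.4 ± 3.82 CPM, followed by Hapln1-gated cells at 7.33 ± 2.17 and Tnnt2-gated cells at 3.83 ± 0.654 CPM (mean and SD of 4 libraries). The log2 difference of Tnnt2- from Hapln1-gated cells was -0.66 (adjusted p = 0.000443), and that of Cdh5- from Hapln1-gated cells was 0.68. These gates had the same order in 4 of 4 libraries, Wt included. In Crabp1-gated cells Neat1 was at 1.79 ± 0.480 CPM, but its 34, 5, 1 and 7 UMIs there are too few to place that gate in each library.

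Bc1 was also highest in Cdh5-gated cells, at 32.7 ± 11.7 CPM, and lowest in Tnnt2-gated cells, at 6.34 ± 2.60 CPM (log2 difference -2.13 in the sense Tnnt2 over Cdh5). Hapln1-gated cells at 20.1 ± 6.30 CPM and Crabp1-gated cells at 18.3 ± 8.95 CPM lay between and did not differ beyond their spread (log2 difference 0.26, adjusted p = 0.160). Tnnt2-gated cells differed from Crabp1-gated ones by -1.11 on the log2 scale (adjusted p = 4.62e-06). The difference of Cdh5- from Hapln1-gated cells was 0.76.

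Malat1 and Kcnq1ot1 were instead highest in Tnnt2-gated cells in the mean of the libraries. Malat1 stood there at 8314 ± 787 CPM, above Cdh5-gated cells at 6106 ± 408 CPM by 0.66 on the log2 scale (adjusted p = 0.000238). Hapln1-gated cells at 6338 ± 392.3 CPM and Crabp1-gated cells at 6897 ± 2182 CPM did not differ from Cdh5-gated ones beyond their spread (adjusted p = 0.938 and 0.989). Crabp1-gated cells were below Tnnt2-gated ones in the fit (log2 difference 0.65, adjusted p = 0.00036), although by CPM they lay above them in Wt2, at 7461 against 7242, and in Ho1, at 9679 against 8366. Kcnq1ot1 fell in steps from 159.6 ± 20.3 CPM in Tnnt2-gated cells through 139.5 ± 6.18 in Cdh5-gated and 107 ± 8.96 in Hapln1-gated to 86.3 ± 18.3 in Crabp1-gated cells. All neighbours in that order were called, with adjusted p of 0.00156, 0.00151 and 0.0483, although in Wt1 Cdh5-gated cells at 137 CPM lay above Tnnt2-gated ones at 131 CPM.

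Lars2 stood out in Crabp1-gated cells at 164 ± 32.3 CPM, against 101.1 ± 20.6 CPM in Hapln1-gated cells (log2 difference -0.66 in the sense Hapln1 over Crabp1, adjusted p = 4.49e-05). Its levels in Cdh5-gated cells, 92.3 ± 12.3 CPM, and Tnnt2-gated cells, 91.3 ± 11.9 CPM, were nearly equal by CPM. With the scaling described above, the fit called Tnnt2-gated cells higher by 0.19 (adjusted p = 0.0420). That call was lost in 6 alternatives, with adjusted p from 0.0521 to 0.174.

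AY036118 was lowest in Tnnt2-gated cells, at 29.4 ± 12.5 CPM, and rose through Cdh5-gated cells at 41.8 ± 15.6 CPM (adjusted p = 0.0148) to Hapln1-gated cells at 56.0 ± 25.9 CPM (adjusted p = 0.0296) and Crabp1-gated cells at 59.5 ± 25.6 CPM, the last step not called (adjusted p = 0.508). The first of these calls was lost without Ho2 (adjusted p = 0.0794) and with cells thinned to 2000 UMIs (0.377). Gm42418 had the same order, from 1182 ± 260.3 to 1744 ± 465 CPM, with no neighbours called. B230312C02Rik lay between 18.9 ± 13.5 and 21.3 ± 6.49 CPM in the 4 gates and no pair was called (adjusted p from 0.175 to 0.609).

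Gm42418, AY036118 and Lars2 differed with the depth of the barcode. Kept barcodes of at least 500 but fewer than 2000 UMIs, of which there were 1285, 730, 478 and 466, were summed per library and compared with the 7623, 6424, 6502 and 5660 barcodes of 2000 to 50000 UMIs, with the library as a block. Of 16031 genes 427 were called (2.66%), 88 higher in shallow barcodes (0.549%) and 339 lower (2.11%), and the median log2 change of all genes was -0.06. The choice of the 8 RNAs named this split of depth, so their own differences are a description, without a test.

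Gm42418 was at 8003, 16433, 10931 and 7115 CPM in shallow barcodes and at 1568, 1627, 1256 and 971 CPM in deep ones. It was higher in shallow barcodes by 2.86 on the log2 scale (SE 0.11), in 4 of 4 libraries. The lowest shallow level was more than 4 times the highest deep one.

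AY036118 was at 340.5, 454, 605 and 148 CPM in shallow and 60.7, 41.3, 43.9 and 17.6 CPM in deep barcodes, a log2 difference of 3.14 (SE 0.11). Lars2 was at 699, 1342, 1291 and 814 CPM in shallow and 120.4, 111, 87.7 and 89.5 CPM in deep barcodes, a log2 difference of 3.24 (SE 0.11). The pools did not overlap for either RNA. In single libraries the factor between the pools was 5.10 to 10.1 for Gm42418, 5.61 to 13.8 for AY036118 and 5.803 to 14.7 for Lars2.

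Within one kind of cell the difference was there too. Among Tnnt2-gated cells, with 184 or more shallow cells in each library, Gm42418 was 7.85 to 11.3 times, AY036118 9.91 to 20.1 times and Lars2 9.97 to 14.8 times as high in shallow cells as in deep ones. Among Cdh5-gated cells, with as few as 18 shallow cells, Gm42418 was 5.69 to 11.4 times and Lars2 9.62 to 25.2 times as high, and AY036118 was higher in 3 of 4 libraries, with no UMI in shallow cells of Ho2. The levels descended step by step with depth. From barcodes of fewer than 1000 UMIs to those of 20000 to 50000 UMIs, Gm42418 went from 14755 ± 6635 to 921 ± 145 CPM and Lars2 from 1432 ± 515 to 61.3 ± 5.81 CPM (mean and SD of 4 libraries). AY036118 went from 506 ± 232 to 21.9 ± 7.57 CPM. For each UMI of Gm42418 there were 0.0777, 0.0692, 0.0719 and 0.0930 UMIs of Lars2 over all kept cells.

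**Figure D4:**
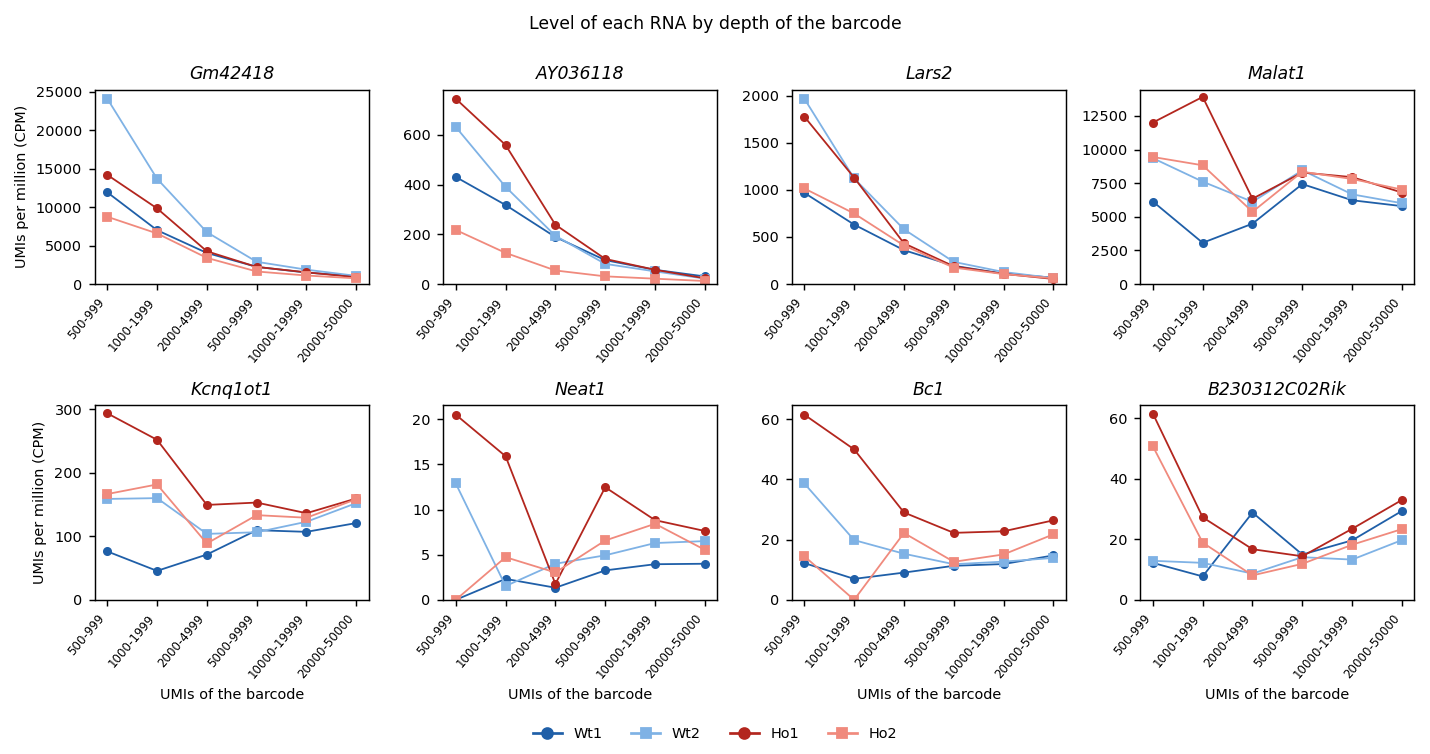
Level of each RNA (y axis, CPM, each panel from 0) in kept barcodes grouped by their number of UMIs (x axis), 1 line per library. Gm42418, AY036118 and Lars2 descended through all depth groups in the 4 libraries, while Neat1, Bc1 and B230312C02Rik, with few UMIs in the shallow groups, showed no common course.

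Over all kept barcodes the other 5 RNAs had no common direction between depths. Malat1 was at 3686, 8073, 13442 and 8983 CPM in shallow barcodes against 6257, 6473, 7374 and 7427 CPM in deep ones, so that Wt1 was lower and the other libraries higher. Its log2 difference was 0.11 (SE 0.10), and 0.39 without Wt1. Kcnq1ot1 followed the same libraries, at 51.8, 159.9, 263 and 178 CPM against 109.9, 135, 149 and 143 CPM (log2 difference 0.03, SE 0.11). Within gates, Malat1 was higher in shallow cells in 4 of 4 libraries among Cdh5-gated (1.13 to 1.51 times) and Hapln1-gated cells (1.17 to 1.61 times). It was so in 3 of 4 among Tnnt2-gated and 1 of 4 among Crabp1-gated cells. Bc1 was higher in 4 of 4 among Tnnt2-gated cells, from 3, 10, 9 and 2 shallow UMIs. Among Cdh5-, Hapln1- and Crabp1-gated cells that held in 1, 3 and 0 of 4.

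Neat1 had only 3, 4, 10 and 2 UMIs in shallow barcodes and Bc1 13, 22, 31 and 2, and B230312C02Rik had 14, 11, 21 and 15. The log2 differences were -0.17 (SE 0.37), 0.19 (SE 0.21) and -0.34 (SE 0.20). With so few UMIs, the levels of these RNAs by genotype rest almost wholly on deep barcodes, where Neat1 was at 3.77, 6.26, 8.32 and 6.89 CPM and Bc1 at 12.4, 13.2, 24.6 and 18.3 CPM.

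Other genes were tested in the same fit. Markers of kinds of cell differed between the pools, and their part in the differences was not tested. Of 9 cardiomyocyte markers 1 was called higher (Tnnt2, 0.38) and 4 lower, of 9 mesenchymal markers 2 were called lower, of 5 epicardial markers 2, of 7 blood markers 3 and of 10 endothelial markers 1. Pf4, a platelet chemokine, at 2.36 and Rpgrip1 at 1.56 were the next highest changes by p after Gm26917, and both were named after their values were seen. All 13 mitochondrially encoded genes were called higher in shallow barcodes, with a median log2 change of 0.74. Of 44 other noncoding RNAs 15 were higher and 29 lower, with a median of -0.20, and 2 were called higher and 4 lower, against 0.549% and 2.11% of all genes and a median of -0.06. Those called higher were H19, an imprinted RNA (0.69, adjusted p = 9.54e-10), and Gm26917 (2.62, adjusted p = 8.71e-127). Gm26917, at chr17:39843013-39846341, ends 11 bases before the ribosomal RNA gene CT010467.1. Those called lower were Snhg12 (-0.76), Snhg3 (-0.46), Zfas1 (-0.45) and 5430416N02Rik (-0.57). Of 20 genes of the integrated stress response 5 were higher and 15 lower, with a median of -0.27, beside the same shares and median of all genes, and Atf3 (-0.92), Cebpb (-0.81), Herpud1 (-0.59) and Ppp1r15a (-0.58) were called lower, and none higher. Of 13 genes of the Kcnq1 domain 2 were higher and 11 lower, with a median of -0.42, and Phlda2 (-1.43), Cd81 (-0.55) and Cdkn1c (-0.42) were called lower. Among the Bc1 partners Eif4a2 (-0.53) and Hnrnpa2b1 (-0.38) were called lower, among genes of ribosome biogenesis Gnl3 (-0.41) and Nhp2 (-0.34), and among paraspeckle protein genes Pcbp1 (-0.37) was called lower and Rbm4b (0.50) higher. No gene of the nuclear speckle, p53 and hypoxia lists was called.

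The RNAs also varied with the share of mitochondrial UMIs of a cell, which is given as a description. Among Tnnt2-gated cells of 2000 UMIs or more, Malat1 was at 5417 ± 1345 CPM in cells under 1% mitochondrial UMIs, 8274 ± 698 at 1 to 2%, 9571 ± 807 at 2 to 5% and 12067 ± 1196 at 5 to 20% (mean and SD of 4 libraries). Kcnq1ot1 went from 107 ± 43.2 through 151 ± 12.7 and 188 ± 14.2 to 349 ± 68.4 CPM. The last group held 19 to 63 cells a library. Gm42418, Lars2 and AY036118 differed by more in that group, at 8405 ± 6284, 808 ± 582 and 112 ± 110.3 CPM against 970.1 ± 125, 69.5 ± 5.72 and 22.3 ± 5.76 CPM at 1 to 2%. They stood at 1673 ± 251, 144 ± 42.8 and 52.8 ± 18.6 CPM under 1%, so they did not ascend from group to group. By library, the last group held Gm42418 at 14485, 13145, 3492 and 2498 CPM and Lars2 at 1304, 1321, 300 and 308 CPM. Both Ho libraries lay below both Wt for Gm42418 and Lars2. Neither the groups nor the libraries were matched for depth, with which both RNAs fell, and the part of depth was not tested. The last group held 19, 27, 57 and 63 cells. AY036118 overlapped there, at 270, 75.2, 87.2 and 14.6 CPM.

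In Cdh5-gated cells Malat1 went from 5220.5 ± 251 CPM under 1% to 7604 ± 1084 at 2 to 5%, and Kcnq1ot1 from 111 ± 16.2 to 178 ± 30.2 CPM. The group of 5 to 20% held only 7 to 9 cells a library here. Neat1 stood at 11.1 ± 3.92, 11.7 ± 3.96 and 9.11 ± 6.16 CPM and Bc1 at 38.5 ± 15.9, 31.6 ± 11.1 and 32.1 ± 10.8 CPM in the first 3 groups, without such an ascent of the means. In single libraries it was not complete for the former pair either, as Malat1 was level in Ho1 from 1 to 2% to 2 to 5%, at 6619 and 6611 CPM, and Kcnq1ot1 in Wt1 was at 143 and 135 CPM.

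**Figure D5:**
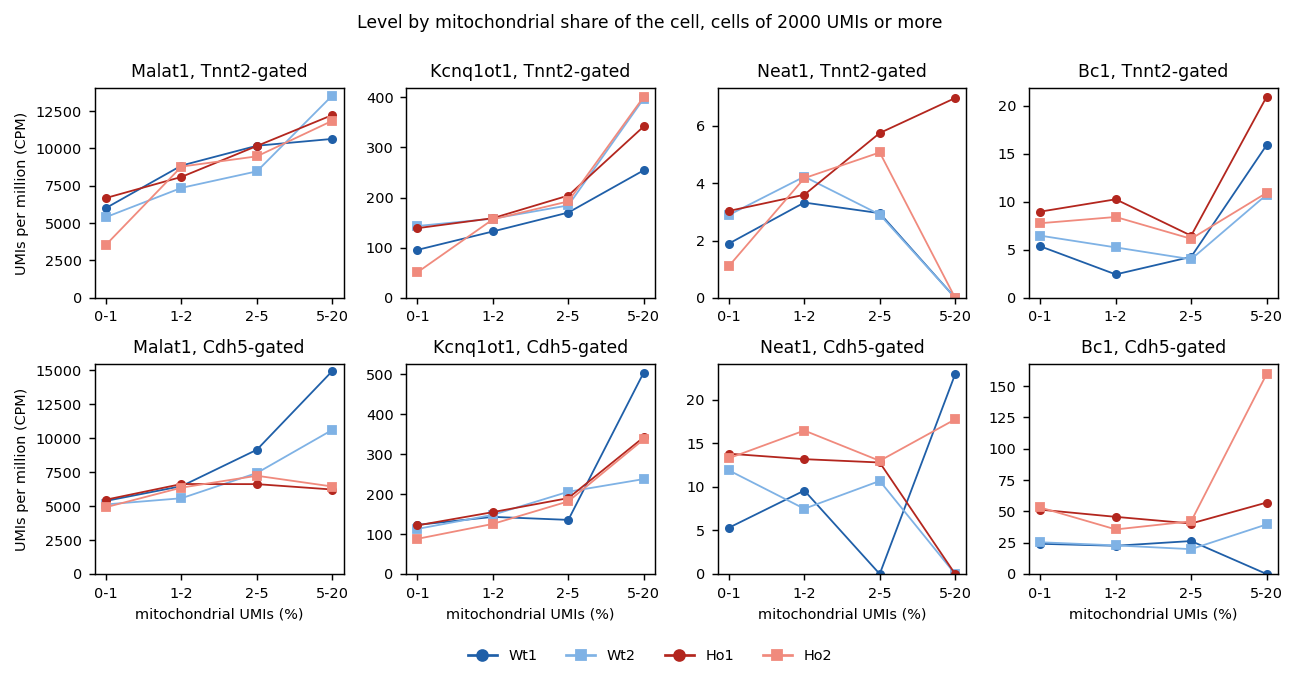
Level of Malat1, Kcnq1ot1, Neat1 and Bc1 (y axis, CPM, each panel from 0) in cells of 2000 UMIs or more grouped by the percent of their UMIs that are mitochondrial (x axis), for Tnnt2-gated (top) and Cdh5-gated cells (bottom), 1 line per library. Malat1 and Kcnq1ot1 ascended in Tnnt2-gated cells of each library, and the last group of Cdh5-gated cells held 7 to 9 cells.

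Across the 16 sums of library and gate, other genes shared the course of these RNAs. The points share libraries and differ in kind of cell, so the Pearson correlations of log2(CPM + 1) only describe likeness, here among 9653 genes. The genes most like Neat1 were Mtmr12 (r = 0.957), Fam122b (0.946), Klf2 (0.944), Sgk1 (0.942) and Epha2 (0.941). Klf2 is a transcription factor that flow induces in endothelium, and Sgk1 a stress-induced kinase. Those most like Bc1 were Hes1 (r = 0.959), Rlim (0.940), Pik3ip1 (0.922), Trib1 (0.922) and Galnt1 (0.917), and Hes1 is a transcriptional repressor downstream of Notch.

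Malat1 was most like Kidins220 (r = 0.915), Prickle1 (0.907), Myl6 (0.896), Trib2 (0.893) and Otud1 (0.892). Gm42418 was most like Atxn7l3 (r = 0.886), Snrpd3 (0.877), Eif1 (0.875), Ftl1 (0.874) and Setdb1 (0.874). Among the 8 RNAs themselves, Gm42418 and AY036118 were the most alike (r = 0.882), then Gm42418 and Lars2 (0.735), while Neat1 and Bc1 reached 0.573. Kcnq1ot1 ran against Lars2 (r = -0.740).

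Genes known to work with these RNAs were counted in Cdh5-gated cells from 9 lists, beside a median log2 change of 0.00 over all 13753 genes and no called gene (percent called 0), and 774 of those genes with an unadjusted p under 0.05, against which the counts at that threshold stand. Of 33 paraspeckle protein genes 20 were higher and 13 lower in Ho, with a median of 0.05, and 1 had an unadjusted p under 0.05. That gene was Cirbp, a cold-inducible RNA-binding protein, at 98.7, 102, 107 and 121 CPM (log2 fold change 0.22, adjusted p = 0.859). Next to it Fam98a was at 28.8, 30.2, 25.95 and 22.3 CPM (-0.25, adjusted p = 0.859). Of 30 nuclear speckle factors 13 were higher and 17 lower, with a median of -0.02 and 4 with an unadjusted p under 0.05. Srsf5, a splicing factor, was at 174, 181, 212 and 208 CPM (0.28, adjusted p = 0.784), and Pnn, a speckle protein of cell junctions, at 218, 223, 184 and 183 CPM (-0.23, adjusted p = 0.859).

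Of 16 genes for Bc1 partners 11 were higher and 5 lower, with a median of 0.02 and none with an unadjusted p under 0.05. The translation initiation factor Eif4b was at 85.6, 85.1, 88.7 and 98.8 CPM (log2 fold change 0.17, adjusted p = 0.859), and the mRNA export receptor Nxf1 at 22.0, 23.9, 25.2 and 25.9 CPM (0.19, adjusted p = 0.859). Of 14 genes of the Kcnq1 imprinted domain 11 could be tested, 4 higher and 7 lower, with a median of -0.04 and 0 with an unadjusted p under 0.05. Slc22a18 was at 1.31, 1.88, 2.13 and 1.99 CPM (log2 fold change 0.39, adjusted p = 0.870) and Nap1l4, a histone chaperone, at 159, 162, 141 and 153 CPM (-0.09, adjusted p = 0.880).

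Kcnq1, the gene in which Kcnq1ot1 lies, was at 1.25, 1.91, 1.75 and 2.18 CPM in Cdh5-gated and at 1.74, 2.03, 1.78 and 2.10 CPM in Tnnt2-gated cells. It had at most 1 UMI in each library in Hapln1- and Crabp1-gated cells. Cdkn1c, an imprinted inhibitor of the cell cycle in the same domain, was at 8732, 11634, 9244 and 9300.3 CPM in Cdh5-gated cells, where the genotypes overlapped.

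Of 39 other noncoding RNAs that could be tested 25 were higher and 14 lower, with a median of 0.10 and 8 with an unadjusted p under 0.05. Among them Zfas1, a host of small nucleolar RNAs, was at 66.5, 63.2, 80.6 and 75.7 CPM (log2 fold change 0.31, adjusted p = 0.838). Snhg6, another such host, was at 52.2, 36.9, 58.6 and 91.8 CPM (0.79, adjusted p = 0.844), with Ho1 close to Wt1.

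The stress programmes to which Neat1 is known to respond were counted in the same way. Of 20 genes of the integrated stress response 13 were higher and 7 lower, with a median of 0.13 and 3 with an unadjusted p under 0.05. Atf3 was at 146, 152, 222 and 197 CPM, both Ho libraries above both Wt (log2 fold change 0.53, SE 0.09, adjusted p = 0.409), and Nupr1 at 3.59, 2.40, 4.23 and 5.67 CPM (0.78, adjusted p = 0.859).

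Of 22 p53 targets 11 were higher and 11 lower, with a median of 0.00 and 2 with an unadjusted p under 0.05. Plk2 was at 185, 184, 209 and 228 CPM (log2 fold change 0.28, adjusted p = 0.794) and Bbc3, which promotes apoptosis, at 14.2, 14.6, 16.9 and 17.2 CPM (0.28, adjusted p = 0.859). Of 25 hypoxia targets 15 were higher and 10 lower, with a median of 0.01 and 2 with an unadjusted p under 0.05. The growth factor Vegfa was at 12.3, 12.3, 14.2 and 15.7 CPM (0.31, adjusted p = 0.859) and Ankrd37 at 11.9, 10.4, 12.7 and 15.1 CPM (0.36, adjusted p = 0.859).

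Of 34 genes of ribosome biogenesis 24 were higher and 10 lower, with a median of 0.04 and 0 with an unadjusted p under 0.05. Ebna1bp2, which acts in the assembly of the large subunit, was at 166, 167, 146 and 144 CPM (log2 fold change -0.16, adjusted p = 0.859), and Utp20, of the small subunit processome, at 14.3, 16.1, 17.03 and 17.8 CPM (0.23, adjusted p = 0.859). None of the genes of these 9 lists was called in Cdh5-, Tnnt2- or Hapln1-gated cells.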

How the data were processed

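The authors sequenced 4 libraries (10x Chromium 3′ v3.1), 2 Wt and 2 Ho, aligned reads to mm10 with Cell Ranger 6.1.1 at its defaults and deposited raw UMI counts per gene and barcode, without normalization; their own cell filtering used Seurat 4.1.0. The 8 genes and all lists were chosen with earlier results of these data known.

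Cells were filtered at the limits of the study. The barcodes with the highest Scrublet scores (scanpy 1.11.5) were taken as doublets, at 0.8% per 1000 barcodes. UMIs of kept cells (97179971, 105282895, 113478594 and 98379564) were summed per library and gate and tested in edgeR 4.0.16 (R 4.3.3), by the quasi-likelihood test with filterByExpr, TMM and Benjamini-Hochberg adjustment over all genes at 0.05. Leaving a library out leaves a lone one, assumed to vary like the other genotype. An exact permutation test of 2 against 2 cannot go below p = 0.333. Intervals are exact Poisson, and a count of 0 was given a limit of 3 counts.

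Genes named were the 8, the 5 most like each of Neat1, Bc1, Malat1 and Gm42418 (mean CPM of 5 or more), the 2 of each list with the smallest p in Cdh5-gated cells, and markers. Genes called between depths in the lists, and Pf4, Rpgrip1, Kcnq1, Cdkn1c, Cyp51 and Xist were named outside this rule, after their values were seen. Transcripts were compared with BLAST 2.17.0. Alternatives were RLE scaling, the absence of a filter or a minimum of 10 counts in each sum, DESeq2 1.42.0, each library left out, doublets kept, at most 10% mitochondrial UMIs, totals without mitochondrial genes and 4 of the RNAs, thinning to 2000 UMIs, the replicate block, doubled gate limits and only deep cells, and for depth no limits on genes or mitochondrial UMIs. The tests were first run on simulated data with 200 changed genes. Of those changed by 1 (log2), 181, 188, 181 and 2 were recovered in Tnnt2-, Cdh5-, Hapln1- and Crabp1-gated cells, with 24, 28, 12 and 4 unchanged genes called. At 0.5 these numbers were 71, 68, 70 and 0, with 10, 23, 6 and 0. At 1, the fit between depths recovered 126, that between gates 190 and that of the Hapln1- minus Tnnt2-gated difference 96.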

Additional observations from a re-analysis of the deposited data

Results flagged for a closer look

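The ratio of Neat1 in shallow over deep barcodes was 2.05 in Ho1, far from the other 3 libraries, where it lay below 1. It rests on 10 shallow UMIs of Neat1 in Ho1, at 17.1 CPM against 8.32 CPM in deep barcodes, and on 3, 4 and 2 UMIs in Wt1, Wt2 and Ho2. Chance alone flags about 1 in 20 groups of 4 in this way.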

How the results depend on the processing

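Depth limits Neat1, Bc1 and B230312C02Rik, each with at most 31 UMIs in the shallow barcodes of a library, and Neat1 in Crabp1-gated cells, with 1 UMI in Ho1. Main counts of genes called Ho against Wt were 0 in Tnnt2-, Cdh5-, Hapln1- and Crabp1-gated cells. They were 223, 305, 157 and 134 without a filter, and DESeq2 called 22, 28 and 10 in the first 3. A minimum of 10 counts gave 1 (Tnnt2) and 3 (Hapln1), doubled gates 8 (Tnnt2) and 3 (Hapln1), thinning 14 (Tnnt2) and doublets kept 3 (Hapln1). Leaving out each library gave 13 to 243, 0 to 314, 14 to 39 and 0 to 180. Replicate numbers did not pair the samples (correlations of -0.119, -0.117, 0.037 and -0.177), and the replicate block called 23, 0, 180 and 0 genes, while the crossed block, added after the data were seen, called 151, 1, 46 and 59. Between depths 427 genes became 211 with DESeq2 and 155 to 450 without a library. Cdh5 against Tnnt2 gates, 10961 genes became 3771 with at least 10 counts, 6983 with thinning and 9960 to 10811 without a library.

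The next counts include values between depths, and of Neat1 and Bc1 between Cdh5- and Tnnt2-gated cells, which are given above without a test. For those values the side of the threshold is a description only, and the counts lend the RNAs no support. Outside the Ho against Wt contrast in Cdh5-gated cells there were 567 values of the 8 RNAs under alternatives. Of these, 520 kept their direction and side of the threshold, 23 passed it, 8 no longer did and 16 reversed, none of them a called value. For the chosen contrast in Cdh5-gated cells, described without a test, 116 of 128 such values stayed the same and 12 moved. Without one library, AY036118 ranged from -1.59 to 0.45 and Lars2 from -0.54 to 0.16 in Hapln1-gated cells, both reversed without Ho2 only. In Crabp1-gated cells Malat1 ranged from -0.055 (without Ho1) to 0.68 and Kcnq1ot1 from -0.37 (without Ho2) to 0.38, the latter also reversed without Wt2 (-0.02). Between depths Malat1 ranged from -0.085 (without Ho1) to 0.39, Neat1 from -0.81 to 0.063 and B230312C02Rik from -0.56 to 0.057 (both highest without Wt1), Bc1 from -0.21 (without Ho1) to 0.47 and Kcnq1ot1 from -0.19 (without Ho1) to 0.37. Bc1 also reversed without Wt2, and Kcnq1ot1 without Wt2 or Ho2, at 10% mitochondrial UMIs (-0.093) and without the gene minimum (-0.018). Gm42418, Cdh5 over Tnnt2, was 0.11 and with thinning -0.16. The cause of these changes was not tested.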

Other observations

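Barcodes outside the kept cells and outside the gates carried these RNAs too. In the 655, 545, 544 and 549 barcodes with fewer than 500 genes (Wt1, Wt2, Ho1 and Ho2), Gm42418 was at 14685, 27949.7, 19140.1 and 10761.5 CPM and Lars2 at 1291, 2728, 2446 and 1667 CPM. In each library both lay above their level in kept barcodes under 2000 UMIs. AY036118 was at 486, 701, 849 and 91.3 CPM there, lowest in Ho2 as in the kept cells. Malat1 was at 3613, 5246, 4550 and 3626 CPM, and Neat1 had 0, 0, 3 and 0 UMIs.

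Among kept cells that passed no gate, Bc1 was at 10.99, 13.6, 27.1 and 20.1 CPM, both Ho libraries above both Wt. Neat1 was at 3.15, 8.76, 13.6 and 3.54 CPM in these cells and the genotypes overlapped. These differences were not tested.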
